A study of Mus musculus with 32 samples.

Results

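The 10 genes described here encode secreted proteins of the acute phase response and the complement system, with an antimicrobial peptide beside them: Saa3, Saa1, Saa2, C3, C4b, Orm1, Serpina3n, Serpina3f, Ptx3 and Camp. They were taken by symbol from the 57186 Ensembl genes listed in the count table, and all 10 were among the 14428 genes with enough counts to be tested. The 32 sequenced libraries came from 3T3-L1 adipocytes, a mouse cell line grown as preadipocytes and differentiated with insulin, dexamethasone and IBMX. The 8 groups, 4 libraries each, were TNF + SCO, TNF + CAP7, TNF + ROSI and TNF + DMSO, and SCO, CAP7, ROSI and DMSO without TNF (called alone below), all for 24 h before RNA extraction. DMSO was the vehicle, TNF is tumour necrosis factor alpha, and ROSI is rosiglitazone, an agonist of the nuclear receptor PPARγ. The series title speaks of an Artemisia scoparia extract, but the labels do not spell out SCO or CAP7 and give no dose, so these are used here as names only. By their labels the libraries of a group are biological replicates, with nothing said of separate cultures or days. If they came from 1 culture, the p-values cover only the spread between these libraries. All groups share 1 cell line, so no difference between animals enters.

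Acute phase proteins are plasma proteins whose production changes in inflammation, mostly in the liver, where the cytokines IL-6, IL-1 and TNF act through the transcription factors STAT3, C/EBPβ, C/EBPδ and NF-κB. In mice, adipose tissue is a source of several of them, and Saa3 is the serum amyloid gene best known from adipocytes and macrophages outside the liver. Adipocytes also make complement factors, among them adipsin (factor D), an enzyme of the alternative pathway that was first described in 3T3 adipocytes.

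The promoters of the serum amyloid genes and of Ptx3 are shown as examples, 3 genes of 1 family and 1 outside it, all higher with TNF in every treatment. C3, Serpina3n, Serpina3f and Camp were also higher with TNF in every treatment, and their promoters are not shown. The sequences run from 250 bases before to 50 bases after the start of the gene, are written 5′ to 3′ along the gene's strand and come from RefSeq on GRCm38.p6, matched by symbol. The counts were made on GRCm39, so these coordinates are not those of the count table. Capitals mark letters that match a searched motif, on either strand. The Saa3 promoter lies at chr7:46715627-46715926 on the minus strand, Saa1 at chr7:46742931-46743230 on the minus strand, Saa2 at chr7:46751583-46751882 on the plus strand and Ptx3 at chr3:66219637-66219936 on the plus strand.
Saa3: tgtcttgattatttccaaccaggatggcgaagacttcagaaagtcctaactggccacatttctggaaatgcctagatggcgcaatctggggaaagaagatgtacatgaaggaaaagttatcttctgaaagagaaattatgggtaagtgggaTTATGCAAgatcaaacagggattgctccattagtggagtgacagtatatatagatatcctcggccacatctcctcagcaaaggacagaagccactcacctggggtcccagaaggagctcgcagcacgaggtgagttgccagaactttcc
Saa1: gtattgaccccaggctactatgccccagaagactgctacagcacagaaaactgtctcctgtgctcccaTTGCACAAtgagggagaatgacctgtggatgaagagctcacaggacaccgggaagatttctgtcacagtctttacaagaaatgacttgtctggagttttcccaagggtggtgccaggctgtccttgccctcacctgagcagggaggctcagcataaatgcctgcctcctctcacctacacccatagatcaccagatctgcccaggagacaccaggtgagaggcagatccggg
Saa2: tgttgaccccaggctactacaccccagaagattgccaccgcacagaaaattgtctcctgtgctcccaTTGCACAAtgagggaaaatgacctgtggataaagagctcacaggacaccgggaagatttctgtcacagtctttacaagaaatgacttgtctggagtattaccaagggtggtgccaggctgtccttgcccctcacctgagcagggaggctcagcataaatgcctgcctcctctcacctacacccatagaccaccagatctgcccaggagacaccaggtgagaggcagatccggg
Ptx3: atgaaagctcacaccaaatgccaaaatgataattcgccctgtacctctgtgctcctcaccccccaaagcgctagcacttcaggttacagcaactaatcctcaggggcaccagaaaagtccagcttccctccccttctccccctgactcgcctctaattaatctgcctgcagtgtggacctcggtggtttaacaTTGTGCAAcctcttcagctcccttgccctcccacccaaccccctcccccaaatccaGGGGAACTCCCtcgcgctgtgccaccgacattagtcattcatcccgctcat

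The motifs searched were the C/EBP-type word TTNNGCAA, the STAT-type word TTCNNNGAA and the κB consensus, each on both strands, and no match of one overlapped a match of another. Of the 10 genes, 8 had a promoter in the table, all but C4b and Orm1. A C/EBP-type word stood in 6 of these 8 (Saa3, Saa1, Saa2, Ptx3, Serpina3f and C3), beside 10.8% of all 32851 promoters of the same length. It was absent from Camp and Serpina3n, neither of them shown above, and Serpina3n matched none of the motifs. The κB consensus matched in 2 (Ptx3 and Camp), beside 8.46% of all promoters, and in Ptx3 as a pair of overlapping matches at the start site. The STAT-type word stood in 1 (Serpina3f), beside 8.3%. Saa1 and Saa2 carried the same C/EBP-type letters at nearly the same place, starting at position -182 in Saa1 and -183 in Saa2 relative to the start, and their promoters were identical at 95.3% of aligned positions, against 50.9% between Saa3 and Saa1. A match says only that these letters are present.

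Library totals ran from 11312837 to 37675008 counts, with a median of 20869728, and Pearson's r between libraries of 1 group lay between 0.978 and 0.987 across genes, on log2 values. Levels below are CPM (counts in each 1e6 of the library's counts, scaled by edgeR's TMM factors), as mean ± SD over the 4 libraries of a group, and log2 changes carry their standard error. A gene was called in a comparison when its Benjamini-Hochberg adjusted p over the 14428 genes, from edgeR's quasi-likelihood test, was under 0.05. Adipocyte markers (7 genes, Adipoq and Fabp4 among them) summed to a median of 9149 CPM in TNF + DMSO, against 30293 CPM in DMSO alone, and to 33339 CPM in TNF + SCO, 32282 CPM in TNF + CAP7 and 49837 CPM in TNF + ROSI. Fabp4 held most of their counts, 18939109 over the 32 libraries, against 4289171 for Adipoq, so the sum follows Fabp4 above all. Adipoq itself averaged 2803 CPM in TNF + DMSO, against 9629 CPM in DMSO alone. In TNF + SCO, TNF + CAP7 and TNF + ROSI it averaged 3501, 4246 and 4959 CPM. Of the 6 adipocyte markers tested, all 6 were lower with TNF in DMSO, where 27.5% of all genes tested were called lower. With TNF, 5, 6 and 5 were higher with SCO, CAP7 and ROSI than with vehicle, beside 13.2%, 18% and 19.6% of all genes. Of 5 tested preadipocyte and fibroblast markers, 3 were lower and 1 higher with TNF in DMSO, beside 27.5% and 26.7% of all genes. The 6 of that list summed to a median of 1249 CPM in TNF + DMSO, against 2128 CPM in DMSO alone. With TNF, 4, 2 and 3 of the 5 were lower with SCO, CAP7 and ROSI than with vehicle, beside 8.09%, 14.2% and 16.3%. The part of either list in the results below was not tested. In bulk RNA, fewer cells of a type and less RNA per cell cannot be told apart. Of the macrophage markers, Adgre1 had 0 counts, Itgam 3 and Ptprc 7 counts in all 32 libraries together, and the 7 markers summed to 11.3 to 14.6 CPM in TNF + DMSO, against 1.78 to 4.03 CPM in DMSO alone. With TNF the macrophage sum was 8.67 to 10.1 CPM with SCO, 5.10 to 8.27 CPM with CAP7 and 6.91 to 8.29 CPM with ROSI. Of 4 tested markers only Cd68 was called, lower with each compound than with vehicle (-0.78, -1.32 and -1.11). Mrc1, not called, averaged 1.62, 0.562 and 1.31 CPM with SCO, CAP7 and ROSI, against 0.719 CPM with vehicle. The median log2 changes of the 4 were 0.07, -0.06 and -0.32. The part of these markers in the results below was not tested. The hepatocyte markers Ttr, Fgb and Ahsg had 0 counts in all libraries, and the 5 of that list summed to at most 2.57 CPM in any library.

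With TNF in vehicle-treated cells, 8 of the 10 genes were higher and 1, Orm1, was lower, against DMSO alone, in comparison with 26.7% of all genes tested called higher and 27.5% called lower. The median log2 change of the 10 was 4.65, against -0.01 over all genes tested. The serum amyloids, Ptx3, Serpina3f and Camp rose most, C3 and Serpina3n, already abundant without TNF, rose less, and C4b did not pass the test. Since the 10 genes were chosen with earlier results of these data known, their count describes them and is no independent test of the group.

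Among the serum amyloids, small apolipoproteins of the acute phase, Saa3 (ENSMUSG00000040026) was at 5701, 6441, 6476 and 7058 CPM in the TNF + DMSO libraries, against 1.95, 3.11, 1.65 and 1.26 CPM in the DMSO libraries. Every library with TNF lay above every one without it, by a log2 change of 11.63 ± 0.22 (adjusted p = 3.29e-32), which ranked 2 among the 14428 genes. Saa3 took 0.683% of all counts in TNF + DMSO. Saa1 (ENSMUSG00000074115) was at 6.93, 9.37, 7.56 and 10.1 CPM in TNF + DMSO, against 0.13, 0.324, 0.132 and 0.0839 CPM in DMSO alone. Saa2 (ENSMUSG00000057465) was at 8.0, 11.5, 8.70 and 12.3 CPM in TNF + DMSO, against 0.304, 0.906, 0.593 and 0.0839 CPM in DMSO alone. Both pairs of groups stood apart, with log2 changes of 5.61 ± 0.427 for Saa1 and 4.4 ± 0.352 for Saa2 (adjusted p = 3.11e-14 and 1.34e-13). In DMSO alone the 4 libraries held 133 counts of Saa3, 11 of Saa1 and 31 of Saa2 in all, so the size of these changes is less certain than their direction. Of the 50-base words in the last 300 bases of their transcripts, 9.56% were common to Saa1 and Saa2 and none of Saa3's stood in another gene; how reads that fit several genes were counted is not stated.

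Of the complement genes, C3 (ENSMUSG00000024164), the component on which all complement pathways converge, was at 1858, 1926, 1886 and 2106 CPM in TNF + DMSO, against 785, 880.3, 940.4 and 799 CPM in DMSO alone. The groups did not overlap, and the log2 change was 1.19 ± 0.0822 (adjusted p = 1.89e-15). C4b (ENSMUSG00000073418), which encodes the mouse complement component C4 of the classical and lectin pathways, was at 83.6, 84.1, 76.3 and 76.8 CPM in TNF + DMSO, against 66.7, 85.1, 76.2 and 76.4 CPM in DMSO alone. The 2 groups overlapped, and the log2 change of 0.08 had a 95% interval of -0.13 to 0.28 (adjusted p = 0.544). Of the words in the last 300 bases of C4b, 53.0% also stood in C4a, so its counts may hold or lack reads of that copy.

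Orm1 (ENSMUSG00000039196), an α1-acid glycoprotein that binds lipids and drugs in plasma, was the member that fell. It was at 85.9, 91.0, 96.7 and 114 CPM in TNF + DMSO, against 228, 238, 196 and 211 CPM in DMSO alone. All 4 libraries with TNF were lower, by a log2 change of -1.17 ± 0.115 (adjusted p = 2.93e-11). Orm1 shares 58.6% of the words of its last 300 bases with Orm2 or Orm3, which bears on its level in every group.

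The serine protease inhibitor Serpina3n (ENSMUSG00000021091), one of the mouse relatives of human α1-antichymotrypsin, was at 223, 249, 256 and 248 CPM in TNF + DMSO, against 47.3, 53.1, 42.8 and 39.0 CPM in DMSO alone. The groups did not overlap, and the log2 change was 2.42 ± 0.146 (adjusted p = 3.56e-17). Its neighbour in the same gene cluster on chromosome 12, Serpina3f (ENSMUSG00000066363), was at 13.4, 17.8, 18.3 and 16.6 CPM in TNF + DMSO, against 0.39, 0, 0 and 0.168 CPM in DMSO alone. It was thus near the limit of detection without TNF, with 11 counts in all, and its log2 change was 6.59 ± 0.395 (adjusted p = 3.08e-17).

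Ptx3 (ENSMUSG00000027832), a long pentraxin that binds microbes and complement components, was at 582, 649.6, 705 and 681 CPM in TNF + DMSO, against 16.7, 18.4, 19.0 and 24.3 CPM in DMSO alone. Camp (ENSMUSG00000038357), which encodes the cathelicidin antimicrobial peptide of mice, was at 36.8, 33.1, 41.7 and 37.2 CPM in TNF + DMSO, against 0.911, 2.26, 0.989 and 0.839 CPM in DMSO alone. Both genes separated the groups completely, with log2 changes of 5.07 ± 0.155 for Ptx3 and 4.9 ± 0.232 for Camp (adjusted p = 3.17e-26 and 2.21e-20). Camp is best known as a neutrophil granule gene, and of 6 neutrophil markers Mpo, Ngp, S100a9 and Ltf had 0, 1, 5 and 11 counts in all 32 libraries together. The other two were Elane, with 604 counts, called lower with TNF in DMSO (-3.30 ± 0.577), and S100a8, with 49421 counts, called higher (3.08 ± 0.147).

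**Figure D1:**
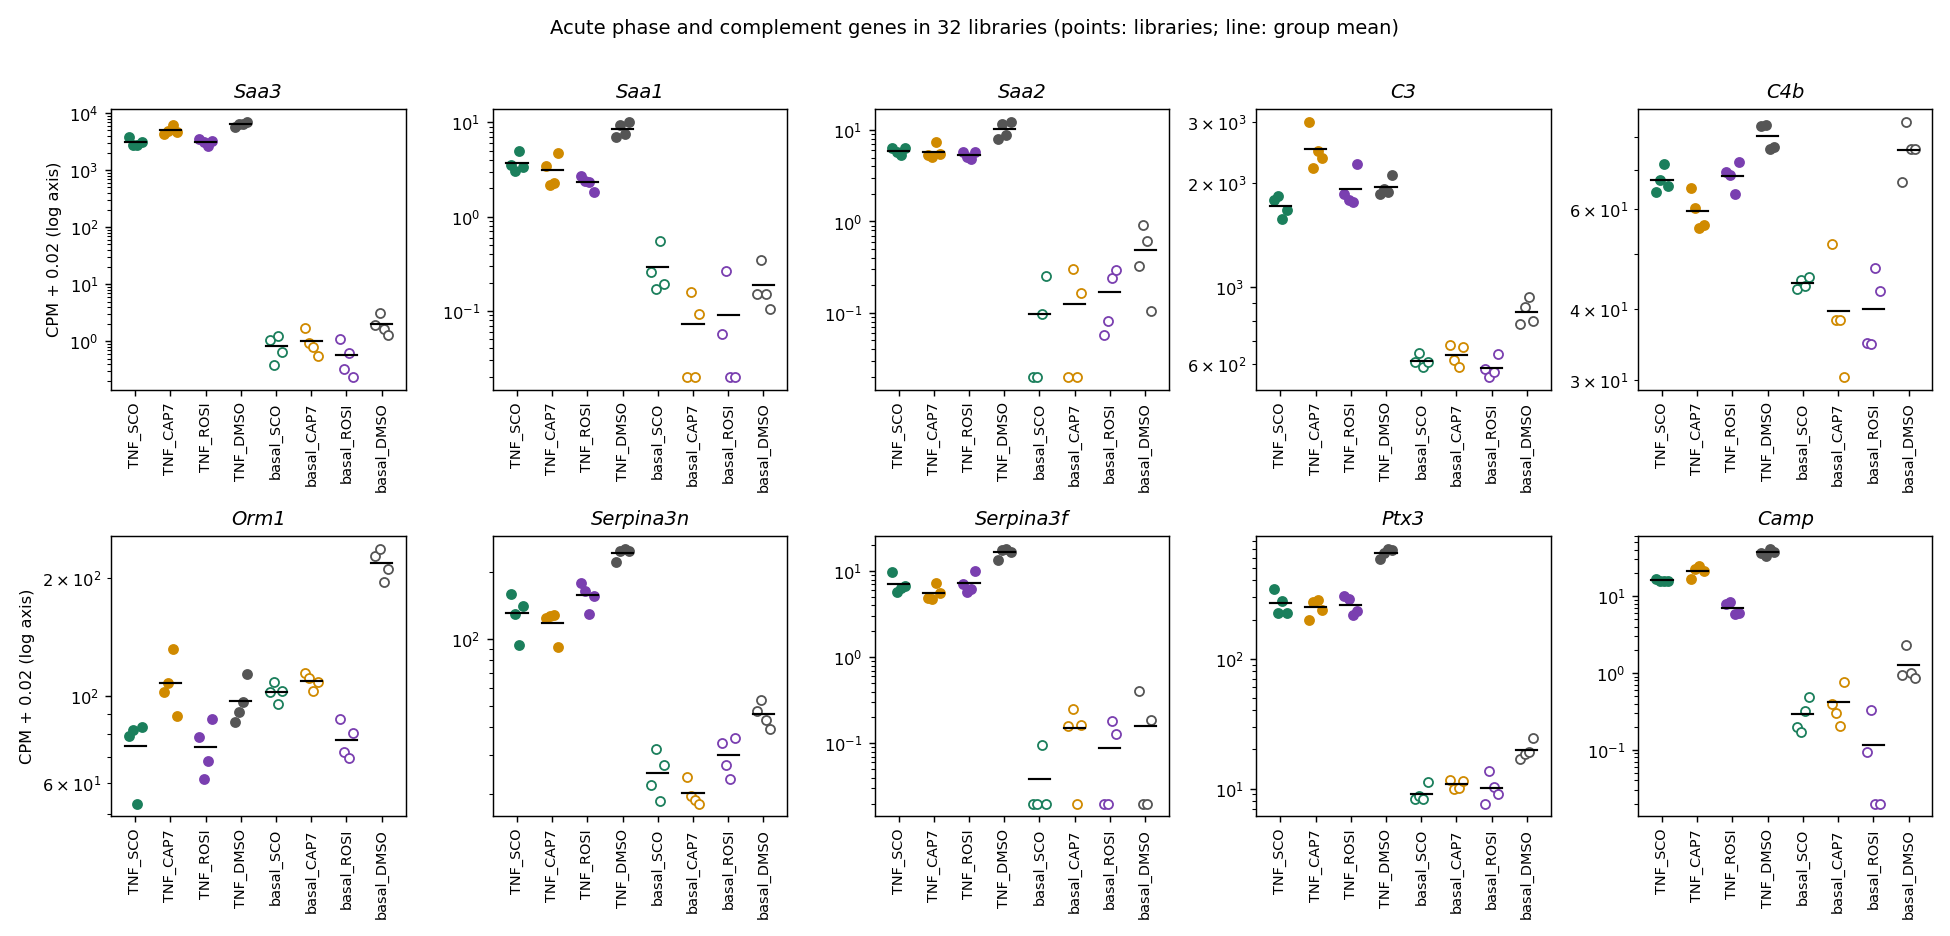
CPM plus 0.02 of the 10 genes on a log axis, in TNF + SCO, TNF + CAP7, TNF + ROSI, TNF + DMSO, SCO, CAP7, ROSI and DMSO from left to right, with a point for each of 4 libraries (filled with TNF, open without) and a line at the group mean. Saa3 lies at 2634 CPM or more in all 16 libraries with TNF and at 3.11 CPM or less in all 16 without it, while Orm1 has its highest points in DMSO alone.

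In compound-treated cells TNF raised the same 8 genes and C4b as well: 9 of the 10 were called higher with each of SCO, CAP7 and ROSI, against 25%, 23.4% and 24.9% of all genes tested. The 9 did not overlap between TNF and no TNF in any of the 3 treatments. How many of all genes tested did not overlap was not counted, so this only describes the 9. Saa3 had log2 changes of 11.89 ± 0.236 with SCO, 12.35 ± 0.23 with CAP7 and 12.31 ± 0.238 with ROSI, and it ranked 1 among all genes with CAP7. Without TNF it had 49, 84 and 49 counts in all with SCO, CAP7 and ROSI. Ptx3 had 4.87 ± 0.161, 4.52 ± 0.154 and 4.70 ± 0.157 with SCO, CAP7 and ROSI, and Serpina3n 2.40 ± 0.151, 2.56 ± 0.15 and 2.39 ± 0.147. C3 had 1.48 ± 0.0829, 1.97 ± 0.084 and 1.71 ± 0.0833. For Serpina3f in SCO-treated cells the comparison rests on 695 counts with TNF and 1 count without it, a ratio of 437 with a 95% counting interval of 78.2 to 17280, which covers counting error only.

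C4b was called higher with TNF in compound-treated cells and not called with DMSO, while Orm1 was called lower with SCO and DMSO and not with CAP7 or ROSI. C4b averaged 67.3 ± 3.39, 59.3 ± 4.42 and 68.5 ± 3.71 CPM in TNF + SCO, TNF + CAP7 and TNF + ROSI, against 44.5 ± 0.983, 39.7 ± 8.97 and 40.0 ± 6.22 CPM in SCO, CAP7 and ROSI alone. Its log2 changes were 0.60 ± 0.103, 0.58 ± 0.103 and 0.78 ± 0.103 (adjusted p = 6.43e-06, 1.04e-05 and 4.68e-08). Orm1 fell with TNF in SCO-treated cells, by a log2 change of -0.46 ± 0.116 (adjusted p = 0.000958; 23.3% of all genes were called lower). With CAP7 and ROSI the Orm1 groups overlapped, and the log2 changes of -0.02 (95% interval -0.25 to 0.21) and -0.07 (-0.30 to 0.17) did not pass the test.

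**Figure D2:**
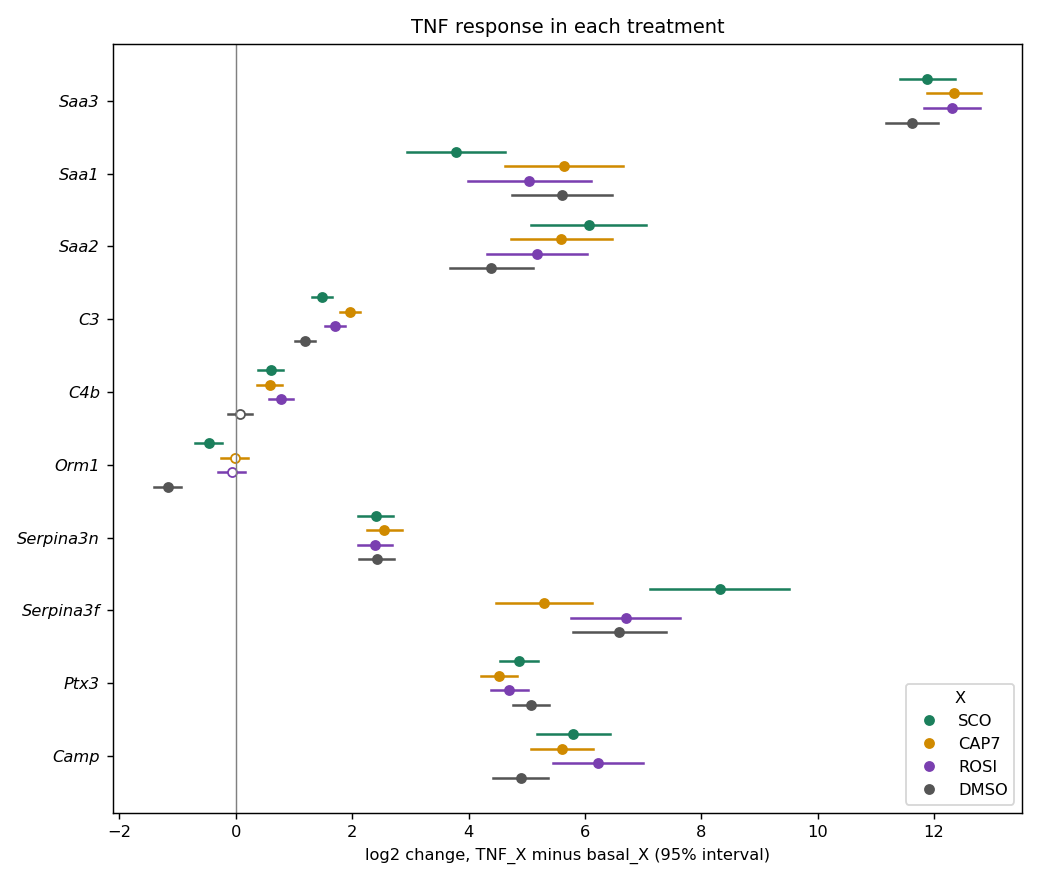
Log2 change of each gene with TNF within SCO-, CAP7-, ROSI- and DMSO-treated cells (points, filled where the adjusted p was under 0.05) with its 95% interval (bars). C4b lies at 0.58 to 0.78 with the compounds and at 0.08 with DMSO, and Orm1 at -0.46 to -0.02 with the compounds and at -1.17 with DMSO.

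The difference of these responses was tested as an interaction, the log2 change with TNF in compound-treated cells minus that in DMSO-treated cells; the 3 interactions share the DMSO libraries. With SCO 2 of the 10 genes were called, C4b (0.52 ± 0.144, adjusted p = 0.0248) and Orm1 (0.71 ± 0.162, 0.00487), against 3.51% of all genes called higher. With CAP7 3 were called, C3 (0.78 ± 0.115, adjusted p = 3.63e-06), C4b (0.50 ± 0.144, 0.0127) and Orm1 (1.15 ± 0.161, 1.52e-06), against 10.3%. With ROSI the same 3 genes were called, C3 (0.52 ± 0.115, adjusted p = 0.0012), C4b (0.70 ± 0.144, 0.000478) and Orm1 (1.10 ± 0.163, 3.02e-06), against 10.1%. In each of them the compound alone had lowered the gene below DMSO alone. With TNF the compound and vehicle groups lay closer together or, for C3 with CAP7, in the opposite order. For Orm1 with CAP7 the groups with TNF overlapped, and their difference was not called. The C4b call with SCO was lost without DMSO replicate 2 (0.46) or TNF + DMSO replicate 3 (0.51).

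With TNF present, each compound lowered 8 of the 10 genes against TNF + DMSO, and the 3 comparisons share the 4 TNF + DMSO libraries. Of all genes tested, 8.09% were called lower with SCO, 14.2% with CAP7 and 16.3% with ROSI. The median log2 changes of the 10 genes were -0.98, -0.81 and -0.99 with SCO, CAP7 and ROSI, against 0.01, 0.00 and 0.00 over all genes tested. Saa1, Saa2, Saa3, Serpina3n, Serpina3f, Ptx3 and Camp were called lower with all 3 compounds. C3, C4b and Orm1 were not: C3 was higher with CAP7, C4b was called lower with CAP7 but not with SCO or ROSI, and Orm1 was called lower with SCO and ROSI.

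Saa3 was at 3775, 2733, 2813 and 3089 CPM in TNF + SCO, at 4402, 4934, 6284 and 4606 CPM in TNF + CAP7 and at 3593, 3082, 2634 and 3234 CPM in TNF + ROSI, against the 5701 to 7058 CPM of TNF + DMSO. The SCO and ROSI libraries lay below all of those with vehicle, while 1 CAP7 library lay within their range. The log2 changes were -1.05 ± 0.13 with SCO (adjusted p = 5.74e-08), -0.34 ± 0.129 with CAP7 (0.0376) and -1.03 ± 0.13 with ROSI (2.68e-08). The CAP7 call was lost with DESeq2 (-0.35) and without TNF + DMSO replicate 2 (-0.34), 3 (-0.34) or 4 (-0.30) or TNF + CAP7 replicate 1 (-0.28), 2 (-0.33) or 4 (-0.30).

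Saa1 was at 3.48, 3.05, 5.0 and 3.37 CPM in TNF + SCO, at 3.39, 2.14, 2.28 and 4.70 CPM in TNF + CAP7 and at 2.69, 2.34, 2.32 and 1.82 CPM in TNF + ROSI. All 12 lay below the 4 libraries of TNF + DMSO, and the log2 changes were -1.18 ± 0.279, -1.43 ± 0.282 and -1.89 ± 0.291 (adjusted p = 0.00155, 9.92e-05 and 1.47e-06). Saa2 averaged 5.94 ± 0.502, 5.77 ± 1.03 and 5.29 ± 0.455 CPM in TNF + SCO, TNF + CAP7 and TNF + ROSI, against 10.1 ± 2.09 CPM in TNF + DMSO, with log2 changes of -0.77 ± 0.254, -0.81 ± 0.254 and -0.94 ± 0.257 (adjusted p = 0.025, 0.0123 and 0.0034). The groups did not overlap. The Saa2 call with SCO was lost without TNF + DMSO replicate 2 (-0.70) or 4 (-0.66) or TNF + SCO replicate 2 (-0.76) or 3 (-0.71), and that with CAP7 without TNF + DMSO replicate 4 (-0.70).

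The pentraxin Ptx3 was at 345, 225, 276 and 226 CPM in TNF + SCO, at 199, 273, 281 and 237 CPM in TNF + CAP7 and at 303, 289.5, 218 and 231 CPM in TNF + ROSI, all far below the 582 to 705 CPM of TNF + DMSO. The log2 changes of -1.29 ± 0.128, -1.40 ± 0.128 and -1.33 ± 0.128 were close to each other (adjusted p = 3.14e-10, 1.98e-11 and 4.53e-11). Serpina3f averaged 7.16 ± 1.85, 5.58 ± 1.17 and 7.23 ± 1.92 CPM in TNF + SCO, TNF + CAP7 and TNF + ROSI, against 16.5 ± 2.22 CPM in TNF + DMSO, with log2 changes of -1.20 ± 0.235, -1.56 ± 0.239 and -1.20 ± 0.236 and no overlap. Serpina3n averaged 131 ± 27.9, 118 ± 17.1 and 158 ± 20.9 CPM in TNF + SCO, TNF + CAP7 and TNF + ROSI, against 244 ± 14.3 CPM in TNF + DMSO. All 12 Serpina3n libraries lay below those with vehicle, and the log2 changes were -0.90 ± 0.136, -1.05 ± 0.137 and -0.63 ± 0.136 (adjusted p = 2.47e-06, 6.99e-08 and 0.000263).

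Camp set ROSI apart from the other compounds. It was at 16.8, 15.8, 15.9 and 15.6 CPM in TNF + SCO, at 16.6, 22.8, 24.6 and 21.0 CPM in TNF + CAP7 and at 7.88, 8.41, 5.91 and 6.10 CPM in TNF + ROSI, against 33.1 to 41.7 CPM in TNF + DMSO. Every ROSI library was below every SCO and CAP7 library, and all 12 were below those with vehicle. The log2 changes were -1.22 ± 0.169, -0.81 ± 0.167 and -2.40 ± 0.181 (adjusted p = 5.23e-07, 0.000184 and 6.47e-14).

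Of the members that did not follow this pattern, C3 was at 1785, 1837, 1574 and 1674 CPM in TNF + SCO, at 2999.5, 2210.4, 2464 and 2357 CPM in TNF + CAP7 and at 1853, 1780.4, 1763 and 2275 CPM in TNF + ROSI, against 1858 to 2106 CPM in TNF + DMSO. The 4 CAP7 libraries were above all those with vehicle, by a log2 change of 0.37 ± 0.081 (adjusted p = 0.000427; 18% of all genes were called higher). The values with SCO (-0.18, 95% interval -0.34 to -0.01, adjusted p = 0.119) and ROSI (-0.02, -0.18 to 0.14, adjusted p = 0.888) did not pass the test; that with SCO passed with library size alone (-0.25) and when only the libraries compared were fitted (-0.19). C4b averaged 67.3 ± 3.39, 59.3 ± 4.42 and 68.5 ± 3.71 CPM in TNF + SCO, TNF + CAP7 and TNF + ROSI, against 80.2 ± 4.22 CPM in TNF + DMSO. All 12 C4b libraries lay below those with vehicle. The CAP7 value of -0.44 ± 0.1 was called (adjusted p = 0.000699), whereas -0.25 ± 0.1 with SCO and -0.23 ± 0.1 with ROSI were not (0.0683 and 0.073). Of the 8 alternative fits over all replicates, 5 called C4b with SCO and 4 with ROSI.

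Orm1 was at 79.1, 82.0, 53.1 and 83.1 CPM in TNF + SCO, at 103, 108, 132 and 88.7 CPM in TNF + CAP7 and at 78.6, 61.4, 68.3 and 87.6 CPM in TNF + ROSI, against 85.9 to 114 CPM in TNF + DMSO. The SCO libraries lay just below the vehicle libraries, and those with CAP7 and ROSI overlapped them. The log2 changes were -0.39 ± 0.115 with SCO (adjusted p = 0.0124), 0.15 with CAP7 (95% interval -0.08 to 0.38, not called) and -0.39 ± 0.115 with ROSI (adjusted p = 0.00644). The SCO call was lost without TNF + DMSO replicate 4 (-0.30) or TNF + SCO replicate 3 (-0.25), the library at 53.1 CPM.

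**Figure D3:**
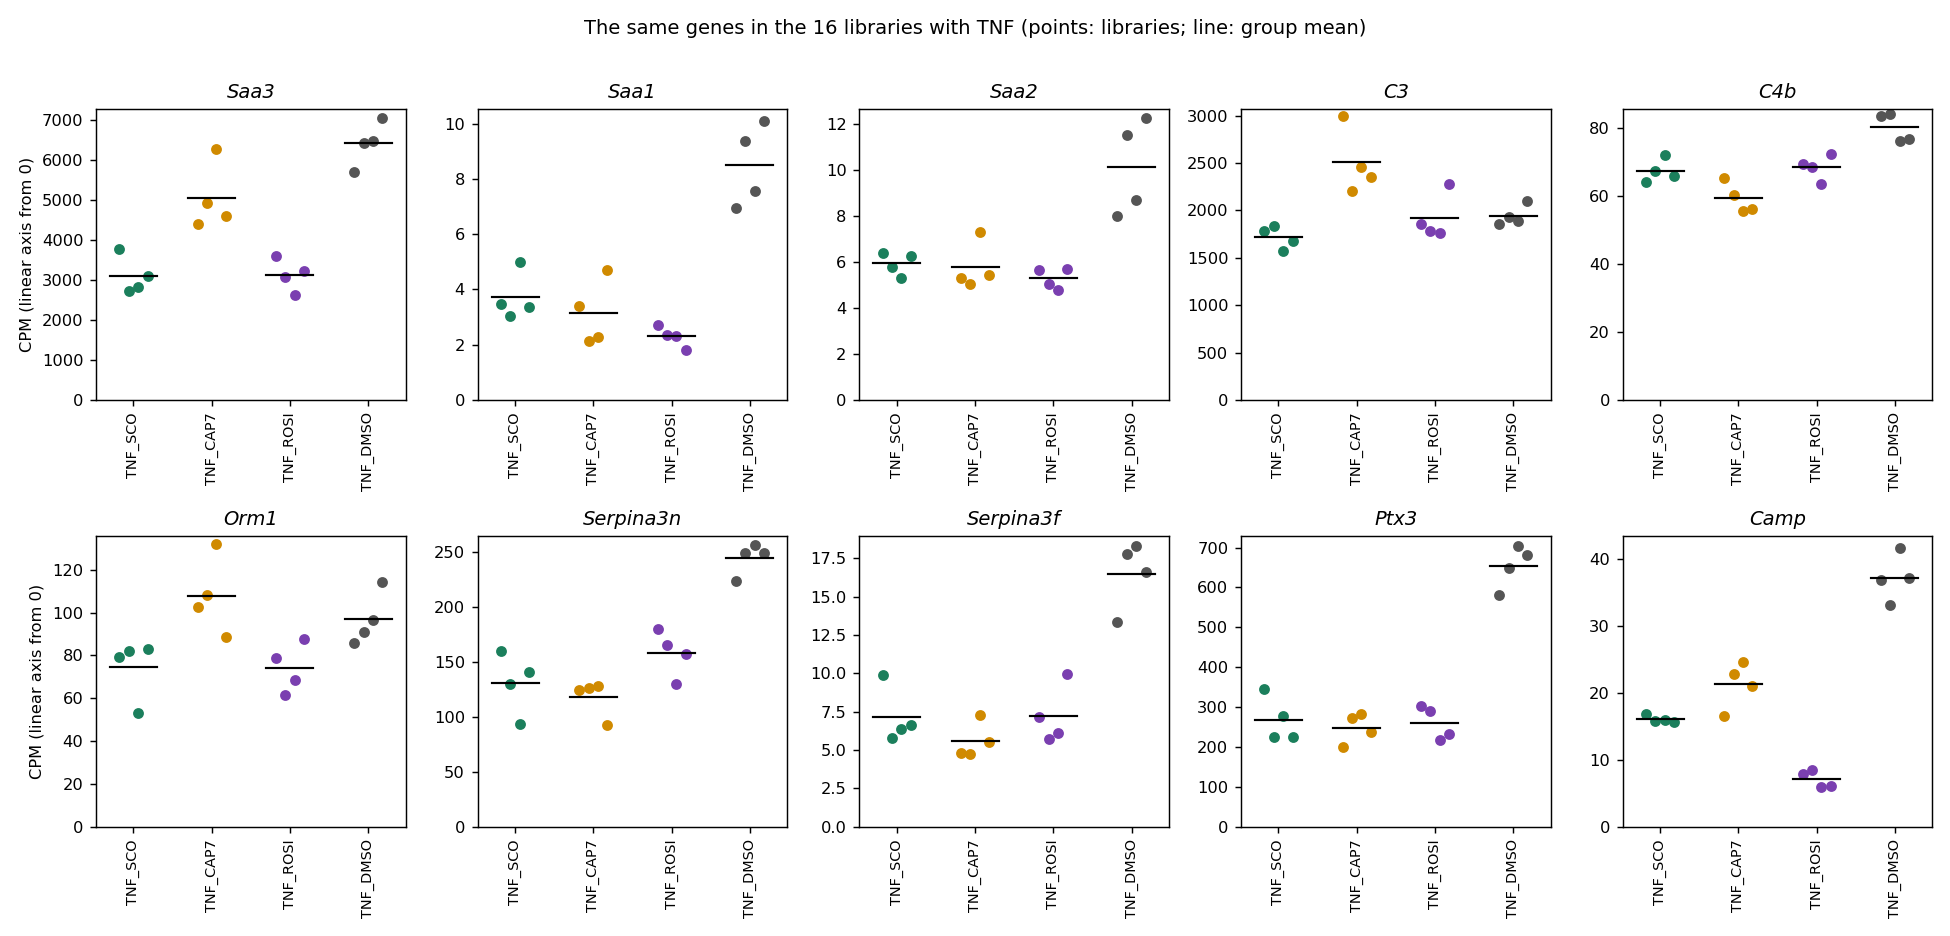
CPM of the 10 genes on linear axes from 0 in TNF + SCO, TNF + CAP7, TNF + ROSI and TNF + DMSO from left to right, with a point for each of 4 libraries and a line at the group mean. Ptx3 is at 345 CPM or less with every compound and at 582 CPM or more with vehicle, C3 is highest with CAP7, and Camp is lowest with ROSI.

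Without TNF, each compound again lowered 8 of the 10 genes against DMSO alone, all but Saa1 and Serpina3f, in 3 comparisons that share the 4 DMSO libraries. Of all genes tested, 8.99% were called lower with SCO, 15% with CAP7 and 19% with ROSI. The median log2 changes of the 10 genes were -1.09, -1.03 and -1.32, against -0.01, -0.02 and -0.03 over all genes tested. The adipocyte marker sum, mostly Fabp4, had medians of 51845, 48412 and 65748 CPM with SCO, CAP7 and ROSI, against 30293 CPM in DMSO alone. Adipoq averaged 8870, 8647 and 11228 CPM with SCO, CAP7 and ROSI, against 9629 CPM in DMSO alone. Of 6 tested adipocyte markers, 4, 4 and 5 were called higher and 1 lower each time, beside 1485, 2200 and 2658 of all 14428 genes called higher. Of 5 tested preadipocyte and fibroblast markers, 4, 5 and 5 were lower with SCO, CAP7 and ROSI, and the part of either list in these differences was not tested. The abundant members C3, C4b, Orm1, Serpina3n and Ptx3 fell in libraries that did not overlap those with vehicle in any of the 3 comparisons, and so did Camp at a far lower level. How many of all genes tested did not overlap was not counted here either, so this only describes these members.

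Orm1 was at 102, 109, 95.4 and 103 CPM with SCO, at 114, 112, 103 and 109 CPM with CAP7 and at 87.2, 72.1, 69.5 and 80.7 CPM with ROSI, against 196 to 238 CPM in DMSO alone. All 12 lay within the range of 53.1 to 132 CPM of the 16 libraries with TNF, and below every library of DMSO alone. The log2 changes were -1.09 ± 0.116, -0.997 ± 0.115 and -1.50 ± 0.117 (adjusted p = 3.64e-09, 8.16e-09 and 2.67e-13). C4b averaged 44.5 ± 0.983, 39.7 ± 8.97 and 40.0 ± 6.22 CPM with SCO, CAP7 and ROSI, against 76.1 ± 7.5 CPM in DMSO alone, with log2 changes of -0.77 ± 0.104, -0.94 ± 0.103 and -0.93 ± 0.104. C3 averaged 614 ± 24.7, 641 ± 44.2 and 587 ± 38.6 CPM with SCO, CAP7 and ROSI, against 851 ± 72.7 CPM in DMSO alone, with log2 changes of -0.47 ± 0.0815, -0.41 ± 0.0814 and -0.54 ± 0.0815 (adjusted p = 3.66e-05, 0.00013 and 1.18e-06). Both complement genes were thus lower with each compound without TNF, whereas C3 was called lower with none of them in the libraries with TNF.

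Serpina3n averaged 24.7 ± 5.77, 20.0 ± 2.59 and 29.9 ± 5.82 CPM with SCO, CAP7 and ROSI, against 45.6 ± 6.08 CPM in DMSO alone (log2 changes -0.89 ± 0.152, -1.19 ± 0.151 and -0.61 ± 0.147). Ptx3 averaged 9.12 ± 1.41, 10.8 ± 0.917 and 10.1 ± 2.49 CPM with SCO, CAP7 and ROSI, against 19.6 ± 3.29 CPM in DMSO alone (log2 changes -1.08 ± 0.166, -0.85 ± 0.156 and -0.96 ± 0.16). Both were called lower in all 3 comparisons, with no overlap.

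The remaining genes had few counts without TNF. Camp was at 0.18, 0.149, 0.305 and 0.465 CPM with SCO, at 0.371, 0.28, 0.183 and 0.753 CPM with CAP7 and at 0.0749, 0.31, 0 and 0 CPM with ROSI, against 0.911, 2.26, 0.989 and 0.839 CPM in DMSO alone. The groups did not overlap, and the log2 changes were -2.12 ± 0.447, -1.52 ± 0.372 and -3.73 ± 0.529 (adjusted p = 0.000506, 0.00158 and 3.4e-07) on 17, 38 and 7 counts with the compounds and 81 with vehicle. Saa3 averaged 0.813 ± 0.379, 0.982 ± 0.485 and 0.554 ± 0.391 CPM with SCO, CAP7 and ROSI, against 1.99 ± 0.795 CPM in DMSO alone (log2 changes -1.31 ± 0.376, -1.06 ± 0.332 and -1.72 ± 0.372, adjusted p = 0.0106, 0.0128 and 0.000289). The CAP7 libraries overlapped those with vehicle. All 3 Saa3 calls were lost with limma-voom (-1.33, -1.13 and -1.89), that with SCO also without DMSO replicate 2 (-1.05) and that with CAP7 without DMSO replicate 2 (-0.80) or CAP7 replicate 4 (-0.80).

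Saa2 had 5, 10 and 11 counts in all with SCO, CAP7 and ROSI, against 31 in DMSO alone, and its groups overlapped. Its log2 changes of -2.44 ± 0.729, -2.0 ± 0.618 and -1.72 ± 0.61 were called (adjusted p = 0.0145, 0.0117 and 0.0235). All 3 calls were lost with limma-voom (-2.41, -2.33 and -1.61) and without DMSO replicate 2 (-1.96, -1.52 and -1.24). The SCO call was also lost without SCO replicate 1 (-2.01) or 2 (-2.10), and its value moved to -4.04 without SCO replicate 4. The ROSI call was also lost without DMSO replicate 3 (-1.61) or ROSI replicate 1 (-1.30) or 2 (-1.53). Saa1 had 16, 5 and 5 counts with SCO, CAP7 and ROSI, against 11 in DMSO alone, and Serpina3f had 1, 12 and 5, against 11. Neither was called; Saa1 with ROSI (-1.33) was called only without ROSI replicate 2 (-3.01), and Serpina3f with SCO (-2.92) with DESeq2 (-3.03) and without the filter on low counts (-2.93). The Serpina3f value, on 1 count with SCO, was -1.28 with limma-voom, -1.24 without DMSO replicate 1 and -4.86 without SCO replicate 3.

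**Figure D4:**
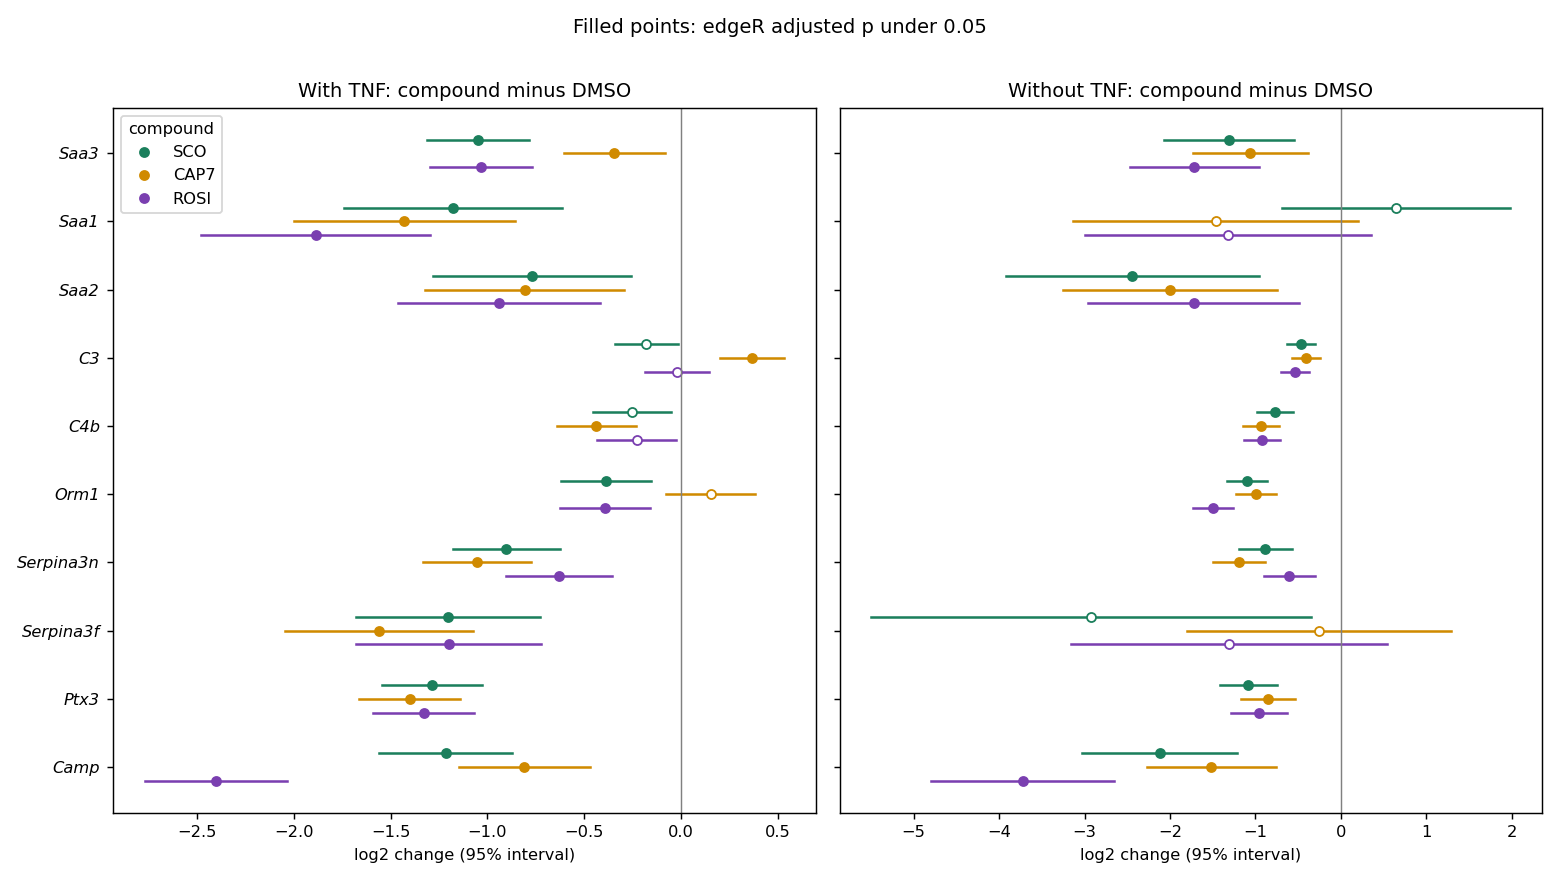
Log2 change of each gene with SCO, CAP7 and ROSI against DMSO, with TNF in the left panel and without TNF in the right (points, filled where the adjusted p was under 0.05) with its 95% interval (bars). With TNF, Ptx3 lies between -1.40 and -1.29 for all 3 compounds and C3 at 0.37 with CAP7; without TNF, the intervals of Saa1, Saa2 and Serpina3f are wide.

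Each pair of compounds was compared within TNF and without it, 6 comparisons in all. With TNF, SCO and CAP7 differed in 3 of the 10 genes, all lower with SCO, against 5.03% of all genes called lower. C3 had a log2 difference of -0.55 ± 0.0811 (SCO minus CAP7, adjusted p = 2.48e-05), Orm1 -0.54 ± 0.115 (0.002) and Saa3 -0.70 ± 0.13 (0.000458), and none of the 3 overlapped between the groups. The Saa3 call was lost with DESeq2 (-0.71), and Camp at -0.41 (95% interval -0.75 to -0.06, adjusted p = 0.13) was called in 4 of the 8 alternative fits. For Ptx3 the difference was 0.12 with an interval of -0.14 to 0.37, and for Serpina3n 0.15 with an interval of -0.12 to 0.43.

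CAP7 and ROSI with TNF differed in 5 of the 10 genes, 4 higher with CAP7 and 1 lower, against 3.48% of all genes called higher and 5.09% called lower. Saa3 (CAP7 minus ROSI, 0.69 ± 0.13, adjusted p = 0.000339), Camp (1.60 ± 0.181, 6.05e-08), Orm1 (0.55 ± 0.115, 0.00131) and C3 (0.39 ± 0.081, 0.00122) were higher with CAP7. Serpina3n was lower with CAP7 (-0.42 ± 0.137, 0.0449). The groups did not overlap for Saa3, Camp, Orm1 and Serpina3n, whereas those of C3 did. With DESeq2 3 genes were called, as Saa3 (0.70) and Serpina3n (-0.42) were lost. Serpina3n was also lost with library size alone (-0.37) and without TNF + CAP7 replicate 1 (-0.45), 2 (-0.46) or 4 (-0.32) or TNF + ROSI replicate 1 (-0.36), 2 (-0.40) or 4 (-0.43).

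SCO and ROSI with TNF differed in 1 of the 10 genes, against 5.74% of all genes called higher. That gene was Camp, higher with SCO by 1.19 ± 0.181 (adjusted p = 6.81e-06) and without overlap. For the others the 95% intervals were -0.28 to 0.25 for Saa3, -0.21 to 0.30 for Ptx3, -0.23 to 0.24 for Orm1, -0.23 to 0.18 for C4b, -0.49 to 0.49 for Serpina3f, -0.36 to 0.70 for Saa2 and -0.32 to 0.00 for C3, whose value was -0.16. Those intervals bound a difference without showing that the compounds acted alike. Saa1 at 0.71 (0.11 to 1.31, adjusted p = 0.105) did not overlap between the groups and was called when only the libraries compared were fitted (0.72) and with limma-voom (0.73), and Serpina3n at -0.27 (-0.55 to 0.00) without the filter on low counts (-0.26).

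Without TNF, CAP7 and ROSI differed in 3 of the 10 genes, against 5.39% of all genes called higher and 6.27% called lower: Camp (CAP7 minus ROSI, 2.21 ± 0.634, adjusted p = 0.0169), Orm1 (0.50 ± 0.115, 0.00256) and Serpina3n (-0.59 ± 0.151, 0.00717), with overlap for Camp and Serpina3n. The Camp call was lost with limma-voom (2.50) and without CAP7 replicate 4 (1.63) or ROSI replicate 1 (2.11), 3 (1.85) or 4 (1.85), and its value moved to 3.54 without ROSI replicate 2. SCO and ROSI differed in 1 gene, against 7.39% of all genes called higher: Orm1, higher with SCO by 0.40 ± 0.116 (adjusted p = 0.0143), a call lost without ROSI replicate 2 (0.37) or 3 (0.35). Camp (1.61) and Saa1 (1.97) in that comparison were called without ROSI replicate 2 (2.94 and 3.65), and Saa1 with DESeq2 (2.05). SCO and CAP7 differed in none of the 10 by edgeR, where 2 had an unadjusted p under 0.05, and in 1 by DESeq2, Saa1 (2.23), against 6.04% of all genes called.

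The rest of the acute phase and complement systems was read from lists written from general knowledge. Their counts stand beside the shares of all genes tested: with TNF in DMSO 26.7% were called higher and 27.5% lower, and in the presence of TNF 13.2%, 18% and 19.6% were called higher and 8.09%, 14.2% and 16.3% lower with SCO, CAP7 and ROSI than with vehicle. Of 10 tested among 20 other acute phase proteins, 8 were higher and 2 lower with TNF in DMSO, a median log2 change of 3.13. The haem-binding Hpx averaged 609 ± 47.4 CPM in TNF + DMSO, against 5.11 ± 0.975 CPM in DMSO alone (6.90 ± 0.136), and the haemoglobin-binding Hp 12162 ± 739.8 CPM, against 794 ± 73.1 CPM (3.94 ± 0.0919). The siderophore-binding Lcn2 (5.57 ± 0.147) and the copper carrier Cp (2.50 ± 0.0906) rose as well. With TNF, Hpx, Hp and Lrg1, a leucine-rich plasma glycoprotein, were higher with each compound than with vehicle: Hpx by 0.63, 0.80 and 1.37, Hp by 0.36, 0.65 and 0.75 and Lrg1 by 0.78, 0.93 and 1.55 on the log2 scale with SCO, CAP7 and ROSI. In this list 4, 6 and 6 genes were called higher with SCO, CAP7 and ROSI and 3, 2 and 3 lower. Lcn2 was lower with SCO (-0.56) and ROSI (-0.31) and higher with CAP7 (0.46), and Cp was lower with all 3 (-0.56, -0.32 and -0.62).

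Of 11 complement components tested, 5 were higher and 1 lower with TNF in DMSO. The alternative pathway protease Cfb rose by 5.92 ± 0.129, whereas Cfd, which encodes adipsin, fell by 1.18 ± 0.0909 on the log2 scale, to 6527 ± 565 CPM in TNF + DMSO, against 14762 ± 661 CPM in DMSO alone. The classical pathway proteases C1ra (1.24 ± 0.104) and C1s1 (1.13 ± 0.121) rose. With TNF, 3, 4 and 4 components were lower with SCO, CAP7 and ROSI, C1ra and C1s1 among them each time, and 0, 2 and 1 were higher. Cfb was higher with CAP7 and ROSI (0.76 each) and not called with SCO (0.18). Of 8 complement regulators tested, 4 were higher and 1 lower with TNF in DMSO. The soluble inhibitor Clu, at 1.62 ± 0.115 with TNF, was lower with each compound (-0.86, -0.51 and -0.84).

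Of 6 relatives of the serum amyloids, orosomucoids and A3 serpins, 3 were higher and 1 lower with TNF in DMSO, and 5 were lower with each of the compounds in the presence of TNF. Serpina3g rose with TNF by 4.16 ± 0.169 and was lower with SCO, CAP7 and ROSI (-0.81, -0.79 and -0.52). Serpina3c fell with TNF by 0.84 ± 0.128 on the log2 scale and was lower again with each compound (-0.79, -0.53 and -1.24). Orm3, a paralogue of Orm1 that shares 3′ end letters with it, was not called with TNF in DMSO (0.23 ± 0.177) and was lower with each compound in its presence (-1.11, -0.59 and -1.53).

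Among 23 upstream cytokine receptors and transcription factors, all tested, 18 were higher and 4 lower with TNF in DMSO, and 10, 12 and 13 were lower with SCO, CAP7 and ROSI in its presence, with 3, 4 and 4 higher. The NF-κB inhibitor gene Nfkbia (2.96 ± 0.0728), Relb (2.95 ± 0.0863) and Bcl3 (3.77 ± 0.117) rose with TNF, and of their 9 values with the compounds only Nfkbia with ROSI (-0.20) and Relb with SCO (-0.22) were called. Cebpd, which encodes C/EBPδ, rose with TNF by 1.01 ± 0.102 and was lower with each compound (-0.79, -0.92 and -1.01). Cebpa, which encodes the adipocyte factor C/EBPα, moved the other way, falling with TNF by 2.80 ± 0.089 on the log2 scale and standing higher with each compound (1.53, 1.82 and 2.27).

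Genes whose pattern was most like that of 4 members were taken by Pearson's r of log2 CPM among the genes tested, as a description, since all libraries share the same treatments. Over the 32 libraries, Saa3 was followed most closely by Tnip1 (r = 0.996), Cxcl1 (0.994) and Smpd1 (0.993), C3 by Tmem176a (0.982), Tmem176b (0.981) and Slc43a3 (0.978), Serpina3n by Timp1 (0.982), Ckap4 (0.979) and Samhd1 (0.979), and Camp by Slc43a2 (0.977), Csf1 (0.975) and Tpm1 (0.974). Over the 16 libraries with TNF the names were others: Cxcl12 (0.949), Clu (0.946) and Mgp (0.945) for Saa3, Smpd1 (0.845), Tln2 (0.833) and Selenow (0.831) for C3, Rab32 (0.944), Lrrfip1 (0.935) and Dek (0.926) for Serpina3n, and Gas6 (0.982), Pmp22 (0.969) and Rab7b (0.965) for Camp.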

How the data were processed

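RNA was sequenced from 32 libraries of 3T3-L1 adipocytes with the QuantSeq 3′ mRNA method, per the labels' protocols. Deposited was 1 table of raw counts, with genes as Ensembl IDs and no normalization. The submitters' processing notes name STAR 2.7.11b, cutadapt 4.9, limma 3.60.6, R 4.4.1, HTSeq 2.0.5 and the build GRCm39. No source used here gives strandedness, read length or the handling of reads that fit several genes. Of 57186 IDs, 51880 matched a symbol.

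A single edgeR 4.0.16 fit (R 4.3.3) took in the 32 libraries, with a mean for each group, after filterByExpr by group and with TMM factors; it had 24 residual degrees of freedom and a common biological coefficient of variation of 0.112. The 19 comparisons were TNF against none in each treatment, each compound against DMSO and each pair of compounds, both with and without TNF, and the interactions of the compounds with TNF. The quasi-likelihood F test gave p-values, adjusted by Benjamini-Hochberg over the 14428 genes of a comparison, and a gene was called under 0.05. The standard error is the log2 change divided by the square root of F, and intervals are of 95% from it. Overlap of groups was read for the members alone, and its share over all genes tested was not counted in any comparison. The test was tried on simulated counts first.

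The members, the gene lists and the tests were chosen with earlier results of these data known. The genes named beside the members were, per list, up to 4 with the lowest p for TNF in DMSO and up to 2 more with the lowest p for a compound with TNF. For Saa3, C3, Serpina3n and Camp the 3 non-member genes with the highest Pearson's r were named, on log2 CPM with a prior count of 2. Sharing of 3′ ends was read from 50-base words in the last 300 bases of the principal GENCODE transcripts of a mouse annotation of another build. Counting intervals cover counting error only.

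Alternatives were RLE factors, library size alone, no filter on low counts, at least 5 CPM in 4 libraries, DESeq2 1.42.0, limma-voom (limma 3.58.1), only the libraries compared, a replicate block and leaving out each library in turn.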

Additional observations from a re-analysis of the deposited data

Results flagged for a closer look

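Of 80 groups of 4 libraries (10 genes in 8 groups), 7 had 1 library that stood apart from the other 3 by more than Dixon's limit. Chance flags about 1 in 20 groups of normally distributed values, a rate that need not hold for groups with few counts. Camp stood at 2.26 CPM in DMSO replicate 2, Orm1 at 53.1 CPM in TNF + SCO replicate 3, Serpina3n at 92.1 CPM in TNF + CAP7 replicate 4, Saa2 at 7.30 CPM in TNF + CAP7 replicate 3 and Ptx3 at 11.2 CPM in SCO replicate 4. Saa1 stood at 0.248 CPM in ROSI replicate 2, on 4 counts, and Serpina3f at 0.0762 CPM in SCO replicate 3, on 1 count. No library held more than 1 of these values. The libraries Orm1 and Serpina3n stand apart in are ones whose removal ends a call named above, the Orm1 call with TNF + SCO and the Serpina3n call between TNF + CAP7 and TNF + ROSI.

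In 8 cases the response of a gene to TNF differed between a compound and DMSO by the test of the interaction, and in all 8 it was higher with the compound. Of all genes called in these interactions, 75.7%, 63.4% and 69.2% were higher with SCO, CAP7 and ROSI. The cases come from Orm1, C4b and C3 alone, and the interactions share the DMSO libraries. For Orm1 the difference in log2 change was 0.71 with SCO, 1.15 with CAP7 and 1.10 with ROSI. For C4b it was 0.52 with SCO, 0.50 with CAP7 and 0.70 with ROSI. For C3 it was 0.78 with CAP7 and 0.52 with ROSI. The adipocyte marker sum was 33339, 32282 and 49837 CPM in TNF + SCO, TNF + CAP7 and TNF + ROSI, against 9149 CPM in TNF + DMSO. It follows Fabp4 above all and moved with the same libraries, and its part in these differences was not tested. Orm1 and C4b share 3′ end words with paralogues, at 58.6% and 53.0%, and C3 with none.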

How the results depend on the processing

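Over the 8 alternatives that keep every library of the groups compared, 143 of 152 counts of members called stayed within 1.5 times the count reported. The count between SCO and ROSI alone was 2 without the filter on low counts and 2 with DESeq2, against 1. Between SCO and CAP7 alone it went to 1 with either, against 0. Between TNF + SCO and TNF + ROSI it went to 2 without the filter, to 2 with only the libraries compared and to 2 with limma-voom, against 1. Between TNF + CAP7 and TNF + ROSI it went to 3 with DESeq2, against 5. For the interaction of CAP7 and TNF it went to 5 without the filter, against 3. The cause was not tested.

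Of the single values, 11 changed sign in those alternatives, all uncalled. For TNF + SCO against TNF + ROSI these were Serpina3f (0.0015 with RLE factors, 0.086 with library size alone, 0.0071 without the filter, 0.0031 with the replicate block, 0.0086 with only the libraries compared and 0.052 with limma-voom), Saa3 (0.071) and C4b (0.062) with library size alone, and Orm1 (-0.0051 with limma-voom). The others were Orm1 in TNF + CAP7 against CAP7 (0.00050 with library size alone) and Serpina3f in CAP7 against DMSO (0.26 with limma-voom).

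When 1 library was left out, counts ran from 0 to 2 between SCO and ROSI alone (0 without ROSI replicate 3), from 0 to 1 between SCO and CAP7 alone (1 without CAP7 replicate 1) and from 1 to 2 for the interaction of SCO and TNF (1 without DMSO replicate 2 or TNF + DMSO replicate 3). Uncalled values that changed sign ran, for TNF + SCO against TNF + ROSI, from -0.12 to 0.057 for Saa3, -0.072 to 0.16 for Orm1, -0.20 to 0.19 for Serpina3f, -0.10 to 0.14 for Ptx3 and -0.059 to 0.0053 for C4b. For TNF + SCO against TNF + CAP7 they ran from -0.017 to 0.17 for Saa2 and -0.028 to 0.19 for Ptx3, and for TNF + CAP7 against TNF + ROSI from -0.0015 to 0.19 for Saa2 and -0.15 to 0.019 for Ptx3. C3 in TNF + ROSI against TNF + DMSO ran from -0.11 to 0.019, Orm1 with TNF from -0.13 to 0.062 with CAP7 and from -0.16 to 0.010 with ROSI, and Serpina3f without TNF from -0.63 to 1.41 in CAP7 and from -2.14 to 0.38 in ROSI against DMSO. The interaction of CAP7 and TNF on Ptx3 (-0.55, not called) was called without DMSO replicate 4 (-0.65) or TNF + CAP7 replicate 2 (-0.60) or 3 (-0.62), without the filter (-0.56) and with only the libraries compared (-0.57), and that of ROSI on Camp (1.32) without ROSI replicate 2 (2.65).

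Over 112 pairs of libraries with the same replicate number in different groups, the mean correlation of deviations was 0.0116, and 3 were over 0.1. Over 336 pairs with other numbers it was -0.0039, and 4 were over 0.1. Of the 32 libraries, 16 correlated best on average with those of their own number, more than the 1 in 4 that chance would give with 4 numbers. The reason was not tested, and the labels do not say whether libraries of a number share a culture or batch. The replicate block changed no call of a member and, as above, 1 sign (0.0031). Library size alone moved the median of all genes by -0.11 (CAP7) and -0.14 (ROSI) without TNF and by -0.10 and -0.16 with it. Of the genes called, the share that was higher with SCO, CAP7 and ROSI was then 35.4%, 28.8% and 27.9% without TNF, against 53.4%, 50.3% and 49.2% with TMM factors, and 44.3%, 36.9% and 31.7% with TNF, against 62%, 55.8% and 54.6%. For SCO over ROSI, CAP7 over ROSI and SCO over CAP7 it was 72%, 57% and 71.6% without TNF, against 50.2%, 46.3% and 49.8%, and 67.8%, 61.9% and 60.9% with TNF, against 39.9%, 40.6% and 45%. Depth limits Saa1, Saa2, Serpina3f and Camp without TNF, where single libraries held from 0 to 35 counts, and also Saa3, where they held from 4 to 48.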

Other observations

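Of 5 tested receptors for the proteins described above, 3 were higher and 2 lower with TNF in DMSO, beside 26.7% and 27.5% of all genes tested. Tlr2, a pattern recognition receptor that binds serum amyloid A, averaged 115 ± 11.1 CPM in TNF + DMSO, against 3.11 ± 0.493 CPM in DMSO alone (log2 change 5.18 ± 0.174, SE). It averaged 60.5 ± 9.5, 57.0 ± 8.16 and 48.7 ± 8.89 CPM in TNF + SCO, TNF + CAP7 and TNF + ROSI and was lower with each (-0.92, -1.01 and -1.24). Scarb1, a lipoprotein receptor that also binds serum amyloid A, went the other way. It averaged 118 ± 7.97 CPM in TNF + DMSO, against 255 ± 10.7 CPM in DMSO alone (-1.11 ± 0.0688), and 244 ± 3.21, 292 ± 26 and 402 ± 46.8 CPM in TNF + SCO, TNF + CAP7 and TNF + ROSI, higher with each (1.04, 1.30 and 1.76).

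S100a8, an alarmin best known from neutrophils, averaged 103 ± 13.8 CPM in TNF + DMSO, against 12.3 ± 1.01 CPM in DMSO alone (3.08 ± 0.147). With TNF it was higher with CAP7 (0.46) and ROSI (0.50) than with vehicle and not called with SCO (0.11). Its usual partner S100a9 had 5 counts in all 32 libraries together.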
